A study of Danio rerio with 6 samples.

Results

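Mitochondrial ribosomal protein genes encode the protein components of the mitoribosome, the ribosome inside mitochondria. They were taken as every gene of the expression table whose symbol starts with mrpl (large subunit) or mrps (small subunit) followed by a number, which gave 72 of 31624 genes, 44 mrpl and 28 mrps. Whole AB-strain zebrafish embryos, 33 hours after fertilization, gave the RNA: 3 libraries are wild-type and 3 come from rbm24a mutants (rbm24a-/-). Rbm24a encodes an RNA-binding protein, and the mutants carry a deletion of 8 bp made with TALENs, which are engineered nucleases. Since the labels of the mutant libraries disagree on the exon it lies in, the exon is not stated here. The mutation is in the whole animal, and the labels name neither a transgene nor a drug, nor the number of embryos in a library. By its title, the study concerned how Rbm24 protects lens crystallin proteins.

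Mitoribosomes translate the few messenger RNAs of the mitochondrial genome, all of which encode subunits of the respiratory chain and ATP synthase. The proteins of the mitoribosome are themselves encoded in the nucleus, made in the cytosol and imported, and they are assembled on ribosomal RNAs transcribed inside mitochondria. Many descend from proteins of the bacterial ribosome, while others are found only in mitochondria, and some of these took over positions from ribosomal RNA. Muscle and heart, with their high demand for respiration, are among the tissues affected in people with defects of this machinery.

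The libraries held 13242789 to 16043155 reads counted to genes. Rbm24a was read at 4.73, 5.52 and 4.49 FPKM (fragments per kilobase of exonic length scaled to the reads of the library) in the wild-type libraries, in the order of their replicate numbers as throughout, and at 6.27, 11.3 and 7 FPKM in the mutants. The mutated gene was itself called higher, 1.71-fold with a log2 change of 0.77 (SE 0.16, edgeR adjusted p = 0.00571), without overlap of the groups and in 13 of 15 alternatives. Since a small deletion leaves most of the transcript to be counted, this level does not check the labels. On the second principal component mutant replicate 2 stood apart. Values without it are given later for the calls over all members, for each called member and for some other genes. For rbm24a, where mutant replicate 2 was the highest library, the change without it is not given here. Of 21 marker genes of muscle, heart, neurons, skin, blood, vessels, leukocytes, notochord, lens, liver and yolk, 19 were at 1 FPKM or more in all 6 libraries. Some of these markers moved themselves, with 6 higher and 5 lower in the mutants of 20 tested, and their part in the values below was not tested. In bulk RNA, fewer cells of a type and less RNA per cell cannot be told apart.

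All 72 genes were expressed in every library, with between 149 and 1420 reads each, so all passed the filter of a mean of 0.5 FPKM and none passed through 1 group alone. Their median level, averaged over the 6 libraries, was 37.3 FPKM, against 4.64 FPKM over all 16489 genes tested, and each of the 72 lay above that median of all genes. Their transcripts were short, with a median exonic length of 1073 bp against 2282 bp over all genes tested. In the deposited annotation 55 of the 72 carry the Gene Ontology term for a structural constituent of the ribosome and 32 the term mitochondrion.

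Levels per length differed among the members although the mitoribosome holds most of its proteins in single copies. In wild-type embryos they ran from 9.45 FPKM (mrpl36) to 96.6 FPKM (mrpl30), a 10.2-fold range, and the middle of the distribution was narrow, from 23.7 to 47.5 FPKM between the quartiles. The highest means over all libraries belonged to mrpl32, a large-subunit protein that a protease of the inner membrane matures, to mrpl23 and mrpl13, both descended from bacterial large-subunit proteins, to mrpl30, and to mrps36, which in mammals has since been assigned to the 2-oxoglutarate dehydrogenase complex. Mrpl32 was at 92.8, 80.9 and 92.4 FPKM in wild-type and 83.9, 81.6 and 82.7 FPKM in mutant replicates, and mrpl23 at 74.99, 73.3 and 82.8 FPKM in wild-type and 81.01, 84.1 and 77.3 FPKM in mutant ones. Neither of these 2 abundant members separated the groups. Mrpl13 was at 78.8, 71.3 and 72.9 FPKM in wild-type and 84.02, 62.7 and 84.01 FPKM in mutant replicates, and mrps36 at 74.2, 64.2 and 57.8 FPKM in wild-type and 77.8, 72.1 and 76.1 FPKM in mutant ones. Their groups overlapped too, and none of these 4 passed the test with all 6 libraries. Without mutant replicate 2, where 14.5% of all genes were called higher, mrpl13 and mrps36 were called higher and mrpl32 and mrpl23 were not. The log2 changes were then 0.30 for mrpl13 and 0.36 for mrps36 (edgeR adjusted p = 0.0161 and 0.0106). The lowest means per length were those of mrps33, mrps25 and mrpl46, small- and large-subunit proteins without a bacterial counterpart. Their exonic lengths of 2227, 6188 and 1828 bp are above the median of 1073 bp, and FPKM divides by this length. Mrps25 had between 890 and 1239 reads in each library, so its low FPKM is not a low read count. Mrps25 was at 12.8, 10.5 and 11.1 FPKM in wild-type and 13.4, 12.9 and 12.5 FPKM in mutant replicates and did not pass with all 6 libraries. In the fit without mutant replicate 2 it was called higher, at a log2 change of 0.30 (edgeR adjusted p = 0.0268). Mrps33 and mrpl46 are described with the genes that fell.

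With all 6 libraries the members as a group were level between the genotypes, while a few single genes moved. In mutants 4 members rose and 9 fell by edgeR's quasi-likelihood test at a Benjamini-Hochberg adjusted p under 0.05 over all genes, and 59 did not pass. These 13 are 18.1% of the 72, against 14.2% of all 16489 genes tested, and the rises and falls compare with 6.71% of all genes called higher and 7.48% called lower. The median log2 change of the members was 0.02, with quartiles of -0.17 and 0.13, beside a median within 0.01 of 0 over all genes, with quartiles of -0.23 and 0.21. The fitted change was above 0 for 41 members and below 0 for 31. Summed over the 72 genes, the level came to 2844, 2654 and 2778 FPKM in the wild-type libraries and to 2779.7, 2461 and 2758 FPKM in the mutants. Mutant replicate 2 had the lowest sum of the 6, and the other mutants lay within the wild-type range. Without mutant replicate 2, 21 members were called higher and 10 lower, against 14.5% and 14.8% of all genes. The median log2 change of the members was then 0.13. Lower calls were fewer without 1 wild-type library: 2, 5 and 3 members without replicate 1, 2 and 3, against 4.49%, 5.12% and 4.41% of all genes. Higher calls numbered 2 without wild-type replicate 2 or 3 or mutant replicate 1, against 4.44%, 3.88% and 4.74% of all genes, and limma called 16 members lower on both log2 scales tried, against 7.9% and 7.69%. By share of reads the members took between 0.283% and 0.302% in wild-type and between 0.264% and 0.295% in mutant libraries.

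**Figure D1:**
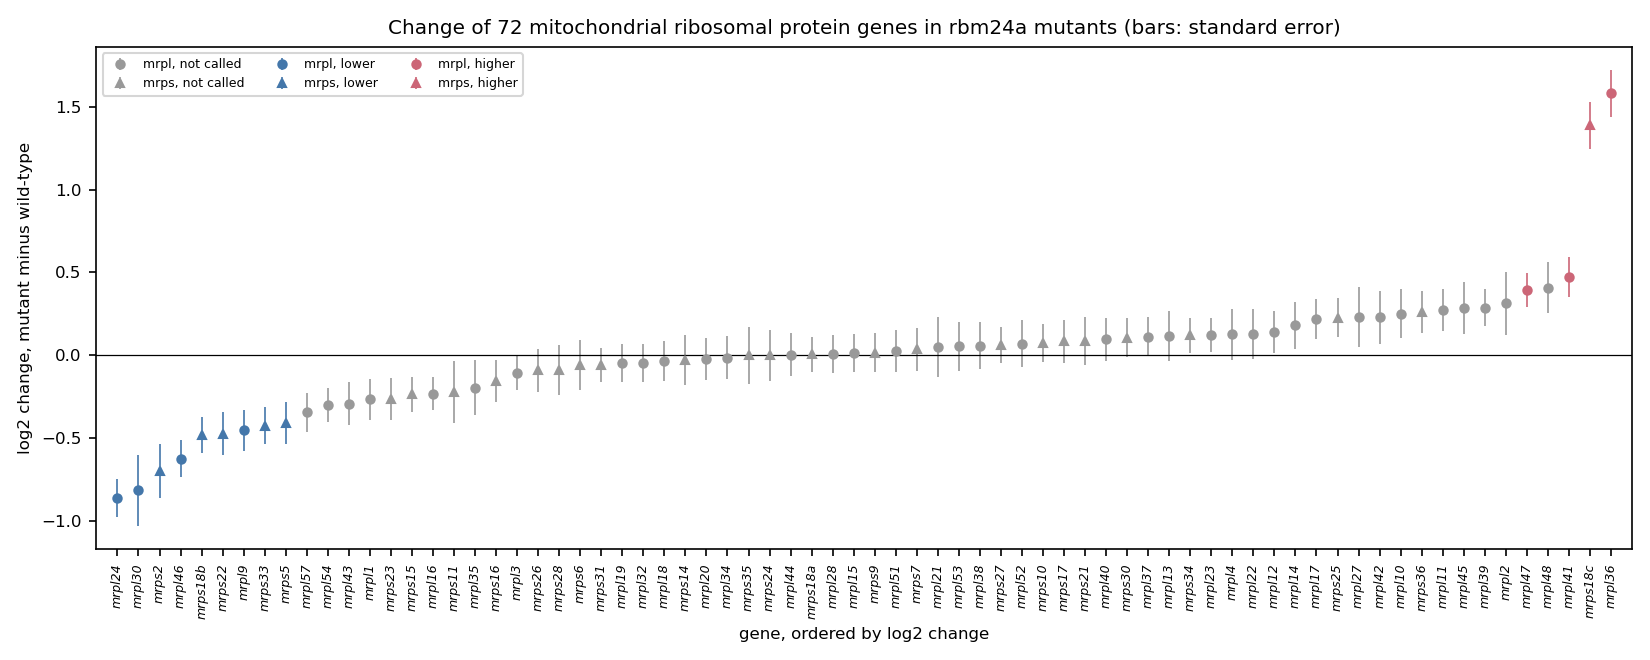
Log2 change of each of the 72 genes (mutant minus wild-type, y axis) in order of that change (x axis), with bars of 1 standard error from edgeR, circles for mrpl and triangles for mrps genes. Mrps18c and mrpl36 stand apart at the right at 1.39 and 1.58, and the 9 genes called lower lie between -0.41 and -0.86.

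Both genes with the strongest rise have bacterial counterparts, 1 in each subunit. Mrpl36 (ENSDARG00000070607), the counterpart of the smallest protein of the bacterial large subunit, was at 9.93, 9.01 and 9.41 FPKM in wild-type replicates and 28, 23.6 and 29.6 FPKM in mutant replicates. Every mutant library was above every wild-type library, and the lowest mutant value was that of replicate 2. The means were 9.45 ± 0.461 and 27.1 ± 3.12 FPKM (SD, n = 3 each), a 2.99-fold rise with a log2 change of 1.58 (SE 0.14, edgeR adjusted p = 1.11e-05). This gene went from the lowest level of all 72 in wild-type embryos to a level inside the quartiles of the wild-type distribution. Its exonic length in the table is 2183 bp, long for this group, and its RefSeq neighbours ndufs6 and lpcat1 did not pass, at log2 changes of 0.14 and -0.14. Whether the reads were counted by strand is not given, so reads of a gene that overlaps mrpl36 could not be told apart.

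Mrps18c (ENSDARG00000069624) is 1 of 3 homologs of the bacterial small-subunit protein S18 and was the other strong rise. It was at 18.7, 15.8 and 21.7 FPKM in wild-type and 49.6, 47.04 and 44.9 FPKM in mutant replicates, with no overlap. The means were 18.7 ± 2.95 and 47.2 ± 2.36 FPKM (SD, n = 3 each), 2.62-fold higher in mutants, with a log2 change of 1.39 (SE 0.14, edgeR adjusted p = 3.73e-05). The 3 homologs took 3 courses. Mrps18b (ENSDARG00000007065), which in mammals sits elsewhere in the small subunit, fell from 48.8, 46.3 and 47.1 to 31.99, 31.7 and 34.2 FPKM, a log2 change of -0.48 (SE 0.11, edgeR adjusted p = 0.0108). Mrps18a, which in mammals is a protein of the large subunit, was at 42.2, 42.1 and 40.5 FPKM in wild-type and 41.4, 40.5 and 38.7 FPKM in mutants, overlapping, and did not pass (log2 change 0.01, SE 0.11, and below 0 under other scalings). In wild-type embryos the order was mrps18b, mrps18a and mrps18c, and in mutants mrps18c came first. The differences between the 3 changes were not tested.

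The other 2 rises were smaller and in large-subunit genes. Mrpl41 (ENSDARG00000002264), which has no bacterial counterpart, was at 27.9, 27.1 and 23.5 FPKM in wild-type and 32.7, 37.6 and 34.8 FPKM in mutants, a log2 change of 0.47 (SE 0.12, edgeR adjusted p = 0.0189). Mrpl47 (ENSDARG00000075743), the counterpart of bacterial L29 near the exit of the peptide tunnel, was at 36.6, 37.9 and 40.7 FPKM in wild-type and 48.5, 51.8 and 45.9 FPKM in mutants, a log2 change of 0.40 (SE 0.10, edgeR adjusted p = 0.0208). Both had groups without overlap, with mutant replicate 2 the highest library for each. The call on mrpl41 was lost without mutant replicate 1 or 3 or wild-type replicate 2 or 3, and that on mrpl47 without mutant replicate 1 or any 1 wild-type library, with edgeR adjusted p up to 0.111 for mrpl41 and 0.0938 for mrpl47.

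Of the 4 large-subunit genes that fell, mrpl24 fell most. Mrpl24 (ENSDARG00000019222), the counterpart of a bacterial protein at the tunnel exit, was at 61.7, 54.7 and 60.6 FPKM in wild-type and 30.8, 36.4 and 27.5 FPKM in mutants. The means were 58.99 ± 3.80 and 31.5 ± 4.51 FPKM (SD, n = 3 each), and the log2 change was -0.86 (SE 0.11, edgeR adjusted p = 0.000237), and the highest mutant library was replicate 2. Mrpl30 (ENSDARG00000069850), the counterpart of bacterial L30 and the most abundant member in wild-type embryos, fell from 104, 93.9 and 91.5 to 65.8, 34.01 and 56.3 FPKM. Here mutant replicate 2 was far below the other mutants, and the log2 change was -0.82 (SE 0.21, edgeR adjusted p = 0.0218), or -0.54 without that library. DESeq2 did not call mrpl30 (adjusted p = 0.11), and the call was also lost without wild-type replicate 1, 2 or 3 (edgeR adjusted p of 0.115, 0.0535 and 0.0628).

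Mrpl46 (ENSDARG00000016307), a mitochondria-specific protein of the central protuberance of the large subunit, was at 14.9, 15.6 and 15.97 FPKM in wild-type and 9.04, 10.1 and 9.85 FPKM in mutants. Its replicates were close together and the groups far apart, with means of 15.5 ± 0.557 and 9.67 ± 0.558 FPKM (SD, n = 3 each) and a log2 change of -0.63 (SE 0.11, edgeR adjusted p = 0.00193). Mrpl9 (ENSDARG00000063249), the counterpart of bacterial L9, fell from 19.4, 18.6 and 19.4 to 11.99, 13.3 and 15.1 FPKM, a log2 change of -0.45 (SE 0.12, edgeR adjusted p = 0.0255). This call was lost without wild-type replicate 1 or 3 or mutant replicate 1 (edgeR adjusted p of 0.109, 0.102 and 0.0855). The mutant values of mrpl9 were all under the wild-type ones, and mutant replicate 3 lay closest to them.

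Of the 28 mrps genes, 5 fell, where 7.48% of all genes tested were called lower. Mrps2 (ENSDARG00000103198), the counterpart of bacterial S2, was at 22.4, 23 and 18.6 FPKM in wild-type and 14.5, 10.4 and 12.8 FPKM in mutants, a log2 change of -0.70 (SE 0.16, edgeR adjusted p = 0.0121). Mrps5, the counterpart of bacterial S5, was at 19.6, 21.8 and 23.7 FPKM against 15.3, 14.6 and 17.1 FPKM, a log2 change of -0.41 (SE 0.13, edgeR adjusted p = 0.0459). With mrps18b these make 3 falls among the small-subunit genes with a bacterial counterpart. Among those without one, mrps22, in which mutations cause mitochondrial disease in humans, was at 24, 23 and 23.7 FPKM in wild-type and 16.8, 14.6 and 17.4 FPKM in mutants, a log2 change of -0.47 (SE 0.13, edgeR adjusted p = 0.0278). Mrps33, the member with the lowest mean level, was at 13.9, 12.95 and 13.6 FPKM against 9.39, 10.8 and 8.98 FPKM, a log2 change of -0.42 (SE 0.11, edgeR adjusted p = 0.0209). For all of these the mutant and wild-type libraries did not overlap. Each of the 5 calls was lost without wild-type replicate 1, with edgeR adjusted p between 0.0613 (mrps18b) and 0.117 (mrps22), and each also without at least 1 other library. Mrps5 was called in 11 of 15 alternatives, with edgeR adjusted p up to 0.204.

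**Figure D2:**
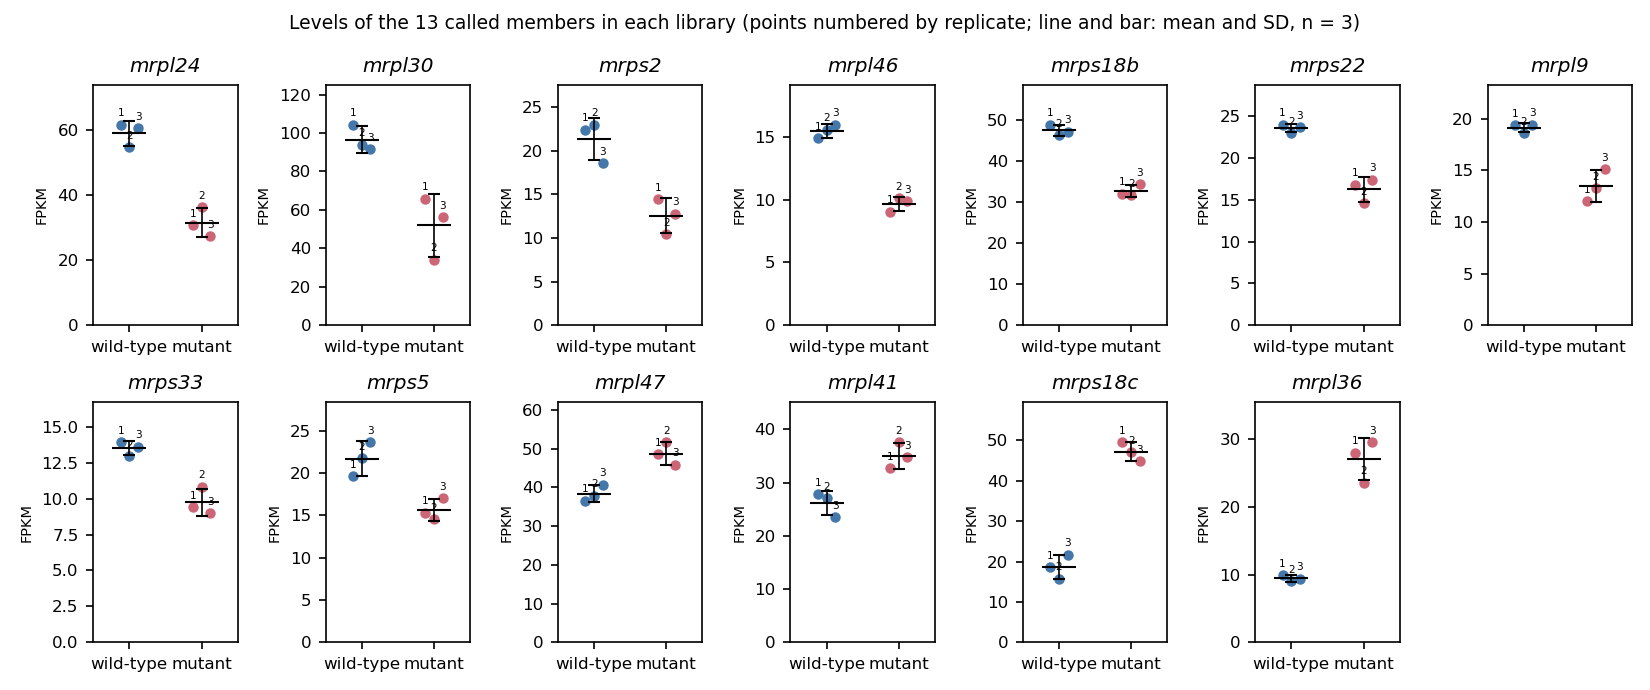
Level in FPKM (y axis, from 0) of the 13 genes that passed the test, in each wild-type and mutant library (points, numbered by replicate), with the mean and SD of 3 libraries as line and bar. No gene has overlapping groups, and mutant replicate 2 is the lowest mutant library for mrpl30 and the highest for mrpl24.

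Divided by symbol, 3 of 44 mrpl genes rose and 4 fell (median log2 change 0.06), and 1 of 28 mrps genes rose and 5 fell (median -0.02). The symbol does not give the subunit of every protein, and mrps18a and mrps36 count as mrps genes here. Divided by descent, 3 of 45 genes with a bacterial counterpart rose and 6 fell (median 0.01), against 1 and 3 of 27 mitochondria-specific genes (median 0.06). Descent was read from the number in the symbol, with mrpl47, mrps24 and mrps28 added to the genes with a bacterial counterpart. Of all genes tested, 6.71% were called higher and 7.48% lower. The difference between these classes of members was not tested, and each median lies well within the quartiles of the other. Over all members, the FPKM of the groups did not overlap for 25 of 72 genes, or 34.7%, against 30.5% of all genes tested. In 18 of these the mutants were lower and in 7 higher, against 17.6% and 12.9% of all genes, and 12 of the 25 did not pass the test.

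The largest changes among members that did not pass were those of mrpl48, mrpl57, mrpl2, mrpl54 and mrpl43. Mrpl48, a protein of the central protuberance, was at 22.8, 21.3 and 29.1 FPKM in wild-type and 30.5, 28.5 and 34.2 FPKM in mutants (log2 change 0.41, edgeR adjusted p = 0.0999). Mrpl57 was at 42.04, 36.98 and 42.5 FPKM against 31.2, 29.5 and 31.4 FPKM (log2 change -0.34, edgeR adjusted p = 0.0737). Wild-type replicate 3 was above mutant replicate 2 for mrpl48, while mrpl57 was lower in every mutant library. Mrpl2, the counterpart of a bacterial protein beside the peptidyl transferase centre, was at 30.5, 26.7 and 32.8 FPKM in wild-type and 40.4, 25.5 and 40.4 FPKM in mutants, so that mutant replicates 1 and 3 were above all wild-type libraries and replicate 2 below them. Its log2 change was 0.31 (SE 0.19) with all libraries. Mrpl54 was at 56.5, 56.8 and 57.4 FPKM against 44.2, 46.1 and 43.3 FPKM and mrpl43 at 23.9, 21 and 23.8 against 17.2, 17.5 and 19.3 FPKM, both lower in every mutant library (edgeR adjusted p = 0.0736 and 0.166).

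In replicate 2 of each group most members were below the other replicates. In mutant replicate 2, 69 of 72 members were below the mean of the other mutants, with a median log2 difference of -0.36, where the median over all genes was within 0.01 of 0. It was the lowest of the 3 mutants for 67 members. Both subunits took part, with medians of -0.39 over the mrpl and -0.35 over the mrps genes, and the shorter and longer members, divided at their median length, were at -0.40 and -0.34. Only mrpl24, mrpl19 and mrps33 were not below the other mutants there, at 0.11, 0.09 and 0.02, and the lowest were mrpl30 at -1.05 and mrpl2 at -0.87. Wild-type replicate 2 was likewise the lowest of its group for 55 members, with a median log2 difference of -0.17. The cytosolic ribosomal protein genes, which have no gene in common with the members, differed in the same direction, by -0.56 in mutant replicate 2 and -0.17 in wild-type replicate 2. Of the 21 tissue markers, 0 were lowest in replicate 2 of both groups and 7 were highest there: elavl3 (neurons), mipa (lens), hbbe3 and alas2 (blood), nppa (heart), acta1b (muscle) and kdrl (vessels). Other markers of the same tissues differed. Mylpfa and tnnt3a (muscle) were lowest in mutant replicate 2, and myl7 (heart) and cdh5 (vessels) were lowest in wild-type replicate 2. The share of all genes highest in replicate 2 of both groups was not counted. Elavl3 was at 14.1, 23.8 and 14.8 FPKM in wild-type and 9.79, 21.5 and 12.7 FPKM in mutants. Summed over the 21 markers the level ran from 13232.7 to 13520.2 FPKM in wild-type and from 14741.6 to 15291.8 FPKM in mutant libraries, highest in replicate 2 of each group. This sum rests mostly on krt4 (skin), mylpfa and hbbe3, so it does not describe the other markers. The part of these tissues in the differences was not tested.

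**Figure D3:**
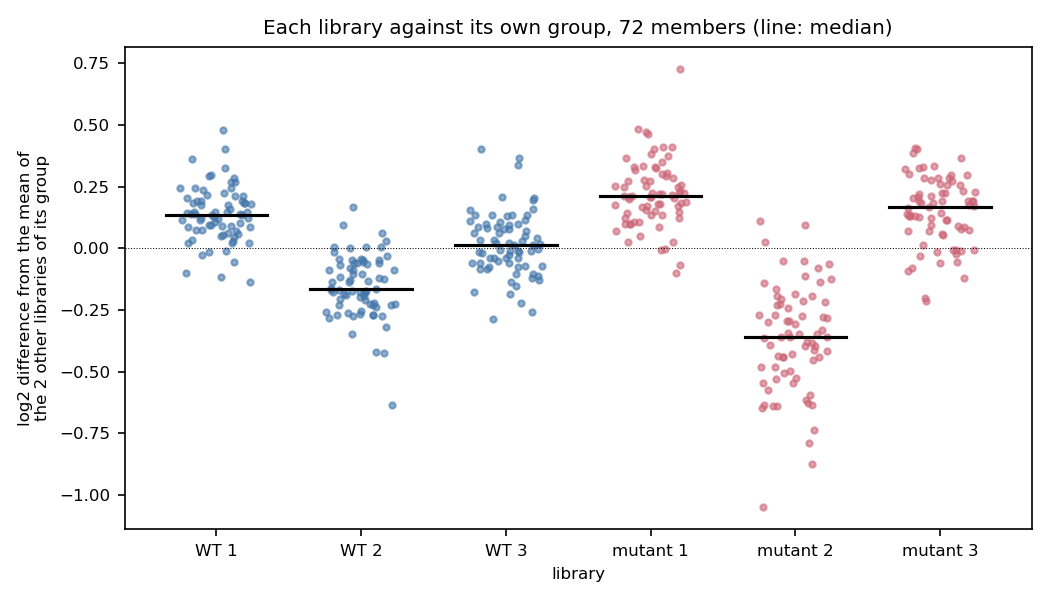
Log2 difference of each of the 72 members (points) from the mean of the other libraries of its group (y axis), for each library (x axis), with the median as a line. By replicate number, the medians are 0.14, -0.17 and 0.01 for wild-type and 0.21, -0.36 and 0.17 for mutants.

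Without mutant replicate 2 more members were called, most of them higher. Then 21 members were called higher and 10 lower, 43.1% of the 72, against 29.3% of all genes tested (14.5% higher and 14.8% lower), and the median log2 change was 0.13 over the members and -0.01 over all genes. All 13 members called with 6 libraries were also called without this one, in the same direction. The falls were then -0.90 for mrpl24, -0.59 for mrpl46, -0.54 for mrpl30, -0.52 for mrps2 and -0.43 for mrps33 on the log2 scale. Those of mrps18b, mrpl9, mrps22 and mrps5 were -0.39, -0.37, -0.34 and -0.30. The rises were 1.73 for mrpl36, 1.46 for mrps18c, 0.49 for mrpl41 and 0.42 for mrpl47. Of the 18 calls gained, 17 were higher, 15 of them mrpl genes and 2 mrps genes, and mrpl54 was the only one lower. Mrpl2 reached a log2 change of 0.55 (edgeR adjusted p = 0.000189) and mrpl48 0.53 (edgeR adjusted p = 0.00303). Mrpl45, which in mammals anchors the tunnel exit to the inner membrane, was at 0.47, and mrpl12, mrpl10 and mrpl11, proteins of the stalk that recruits translation factors and its base, were at 0.28, 0.41 and 0.41. These last 4 genes passed in this fit and were named after their values were seen. They were not called with all 6 libraries.

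**Figure D4:**
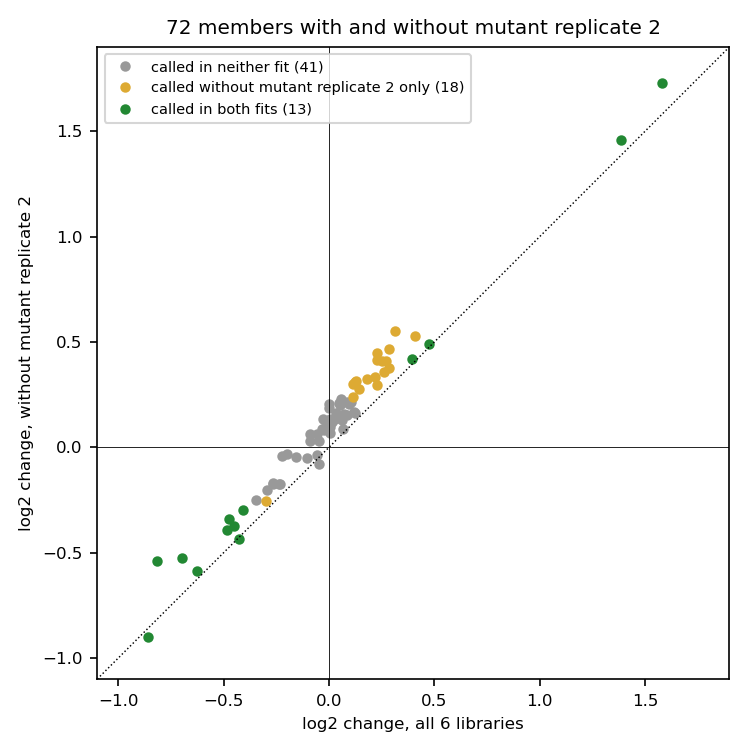
Log2 change of each member without mutant replicate 2 (y axis) against that with all 6 libraries (x axis), with the line of equal values dotted. Most points lie above the line, 13 genes are called in both fits and 18 only without this library.

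Both mrpl24 and mrpl9 lie in a stretch of genes that were lower in the mutants, on the chromosome of the mutated gene. In the RefSeq gene order of the assembly GRCz12tu, which named 71 of the 72 members once, mrpl24 and mrpl9 are separated by a single protein-coding gene, prcc, and followed by lix1l and pbxip1a. Prcc fell from 10.6, 12.5 and 10.95 to 3.28, 5.24 and 4.36 FPKM, a log2 change of -1.36 (SE 0.13, edgeR adjusted p = 1.28e-05). Lix1l was at 9.09, 11.5 and 8.20 FPKM against 2.01, 5.51 and 2.70 FPKM, a log2 change of -1.47 (SE 0.23, edgeR adjusted p = 0.000904), and pbxip1a changed by -0.54 (SE 0.13, edgeR adjusted p = 0.0144). Mrpl24, mrpl9 and these 3 genes were thus all called lower, although pbxip1a was called in 9 of 15 alternatives only. On the other side of mrpl24, rfx5 changed by -0.89 (SE 0.32) and did not pass. Mrps11 and mrpl46, also side by side, did not share a call, with mrps11 at -0.22 (SE 0.19) and not past the threshold. In that assembly mrpl24, mrpl9 and mrpl36 lie on the same chromosome as rbm24a, and mrps18c and mrpl46 do not. Events of rbm24a and pbxip1a are both placed on chromosome 19 of GRCz11 in the authors' deposited table of splicing. For genes on this chromosome, an effect of the mutation and sequence differences inherited with the mutated locus cannot be told apart. These neighbours were looked up after the changes of mrpl24 and mrpl9 were seen, and the share of calls along the chromosomes was not tested.

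**Figure D5:**
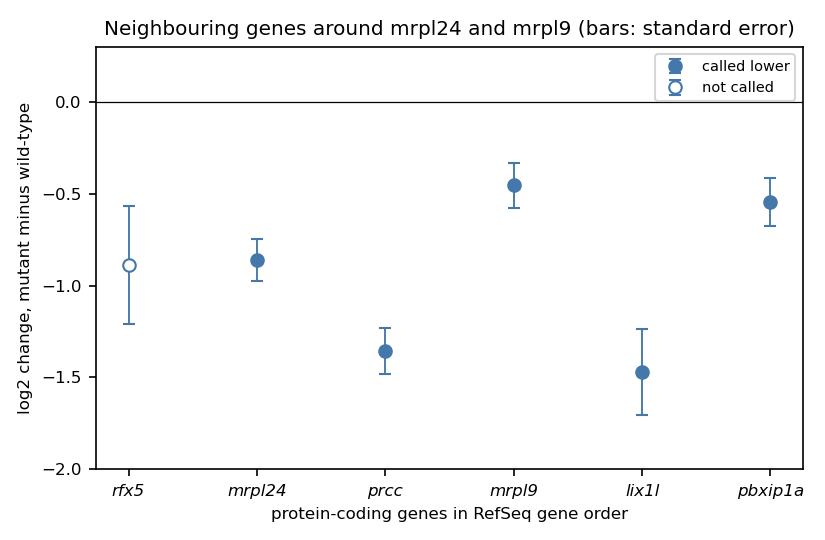
Log2 change (mutant minus wild-type, y axis, bars of 1 standard error) of 6 protein-coding genes in their RefSeq order (x axis), filled where edgeR called the gene lower. Mrpl24, prcc, mrpl9, lix1l and pbxip1a are called, and rfx5 at -0.89 is not.

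Subunits of the mitoribosome that carry other names were followed as a separate list, and 2 of 6 fell and none rose. Of all genes tested, 7.48% were called lower and 6.71% higher, and a list of 6 is too short to compare with these shares. Gadd45gip1, a large-subunit protein, was at 35.04, 33.6 and 35.1 FPKM in wild-type and 25.3, 25.2 and 24.9 FPKM in mutants, a log2 change of -0.41 (SE 0.11, edgeR adjusted p = 0.0211). Ict1, a peptidyl-tRNA hydrolase that is also a large-subunit protein, was at 10.3, 11.7 and 11.99 FPKM against 7.14, 6.46 and 6.95 FPKM, a log2 change of -0.66 (SE 0.15, edgeR adjusted p = 0.0112). Another 3 rows lay outside the symbol rule and were added after it was applied. MRPS12, the counterpart of the bacterial decoding protein S12, fell from 69.7, 61.4 and 66.2 to 45.4, 37.6 and 48.7 FPKM (log2 change -0.52, edgeR adjusted p = 0.0276), a call kept in 13 of 15 alternatives. The gene ENSDARG00000104031, which the table of gene names calls MRPL33, fell from 8.59, 10.5 and 7.51 to 3.50, 4.43 and 2.82 FPKM (log2 change -1.26, SE 0.23, edgeR adjusted p = 0.00251), the lowest change among all these subunit genes. MRPL49 did not pass, at 0.20 (SE 0.15).

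Other genes of mitochondrial gene expression moved singly as well. Over 6 lists that include these renamed subunits, 92 genes were tested, 5 rose and 7 fell (13% called, against 14.2% of all genes), with a median log2 change of -0.02, and without mutant replicate 2 there were 16 rises, where 14.5% of all genes were called higher. Of 15 translation factors and insertion factors 1 rose and 3 fell, against 6.71% and 7.48% of all genes, with a median log2 change of -0.16. Taco1, the translational activator of the mitochondrial messenger for cytochrome oxidase subunit I, fell from 5.64, 5.93 and 7.12 to 1.18, 2.06 and 1.46 FPKM, a log2 change of -1.95 (SE 0.23, edgeR adjusted p = 8.47e-05) and the largest of the 6 lists. Gfm1, a mitochondrial elongation factor G, fell from 10.6, 11.8 and 13.3 to 8, 8.11 and 8.02 FPKM, a log2 change of -0.51 (edgeR adjusted p = 0.0111). The gene matched to mtrfr, a release factor relative that rescues stalled mitoribosomes and is listed here as si:ch211-275j6.5, fell by 0.65 on the log2 scale. Oxa1l, which inserts the new proteins into the inner membrane, rose by 0.38 (edgeR adjusted p = 0.0467), a call kept in 9 of 15 alternatives.

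Among 25 assembly and ribosomal RNA modification factors 2 rose and none fell, where 6.71% of all genes were called higher and 7.48% lower. Fastkd2 rose from 7.14, 7.36 and 7.27 to 11.1, 10.4 and 10.7 FPKM (log2 change 0.62, edgeR adjusted p = 0.00463). DHX30, an RNA helicase, rose from 0.960, 0.860 and 0.850 to 1.42, 1.51 and 1.87 FPKM (log2 change 0.90, edgeR adjusted p = 0.0101). Of 19 tested genes of mitochondrial aminoacyl-tRNA synthesis only sars2, the seryl-tRNA synthetase, passed, at -0.93 (SE 0.24). Transcription and RNA handling had 18 tested genes, of which ssbp1, a DNA-binding protein of the mitochondrial genome, rose by 0.58 and polg, its DNA polymerase, fell by 0.38 on the log2 scale. The call on polg was kept in 4 of the 14 alternatives that tested it. Of 9 tested regulators of mitochondrial biogenesis mycb rose, at 0.45. Without wild-type replicate 3 the calls on gadd45gip1, ict1, gfm1, oxa1l, si:ch211-275j6.5, DHX30, sars2, ssbp1, polg and mycb were lost, while taco1 and fastkd2 were called in every alternative that tested them. The 13 protein-coding transcripts of the mitochondrial genome, which the mitoribosome reads, had a median log2 change of -0.29, with 5 called lower and 0 higher, against 7.48% and 6.71% of all genes. Without wild-type replicate 3 there were 2 lower (4.41% of all genes), and without mutant replicate 2 there were 8 lower and 2 higher (14.8% and 14.5% of all genes).

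By the authors' deposited table of changed genes, 2 of the 72 members are listed, beside 743 genes listed in all and 31624 genes in the expression table. The 743 genes have at least a 2-fold change and a low adjusted p as well. A count of 2 is too small to set the members apart from all genes. Mrpl36 has a log2 change of 1.498 and mrps18c of 1.31 in the authors' deposited table, beside 1.58 and 1.39 in the fit here. Taco1 is at -1.64 and the gene matched to MRPL33 at -1.06 in the authors' deposited table.

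Splicing events were listed for 9 members, a share near that over all genes. Over sheets for 5 event types the authors' deposited table holds 11 events in 9 of the 72 genes, or 12.5%, against 13.6% of all 16489 genes tested for expression. The median size of the change was 5.6 percentage points over these 11 events and 12.9 points over all 3772 events of the authors' deposited table analysed here. These medians were not matched for reads, and 2 of the 11 events had under 20 reads in a library. They therefore do not show smaller changes in the members. Among the members, 9 events in 7 genes had at least 20 reads in every library. Of the alternative 3' splice sites, a part of the sheet with 556 events was analysed here. Sample 1 was taken as wild-type from the order in the labels' name of the comparison, and single levels carry no replicate number. In mrpl30, which fell in expression, 2 overlapping forms of an exon were skipped less often in the mutants. By the authors' deposited table the 47 bp form (GRCz11, chromosome 9, 22014569 to 22014615, minus strand) was included at levels of 0.875, 0.931 and 0.961 in wild-type and 0.976, 1.0 and 0.975 in mutants, a change of 6.1 percentage points with a false discovery rate (FDR) of 0.000417. Reads that skip it numbered 23 in the wild-type libraries together and 4 in the mutant ones in the authors' deposited table, beside 355 and 292 that include it. The 18 bp form (22014569 to 22014586) had levels of 0.602, 0.748 and 0.874 in wild-type and 0.915, 1.0 and 0.894 in mutants in the authors' deposited table, a change of 19.5 points (FDR 0.00075) on 73 and 65 inclusion reads and the same skipping reads. The groups did not overlap for either form, which share their skipping reads and are not independent.

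In mrpl2 a longer exon end, by 12 bp, was used less in the mutants. The authors' deposited table of alternative 5' splice sites gives levels of 0.989, 0.929 and 0.992 in wild-type and 0.911, 0.906 and 0.924 in mutants (chromosome 13, long exon 51659308 to 51659384, minus strand), a change of -5.6 points with an FDR of 2.92e-05. The groups did not overlap, with 0.929 and 0.924 the nearest values. Reads of the short form numbered 9 in wild-type and 42 in mutants over the 3 libraries of each in the authors' deposited table. Mrps23 used a site 4 bp further along at levels of 0.053, 0.057 and 0.028 in wild-type and 0.012, 0.012 and 0.0 in mutants, on 13 and 2 reads of the long form, by the authors' deposited table (FDR 0.032). Mrpl43 had an exon of 107 bp whose levels overlapped between the groups in the authors' deposited table, with a change of 2.1 points.

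The remaining well-read events pair 2 exons as mutually exclusive. In mrpl12, the stalk protein, the pair is an exon of 108 bp (chromosome 3, 49023833 to 49023940, minus strand) and one of 78 bp (49027442 to 49027519). By the authors' deposited table the 78 bp exon had levels of 0.341, 0.341 and 0.347 in wild-type and 0.39, 0.402 and 0.405 in mutants, 5.6 points higher (FDR 0.000299). The levels were assigned to the 78 bp exon because their scaling of reads by length makes the included form the shorter one. In mrpl23 the 123 bp exon (chromosome 25, 23680593 to 23680715, plus strand) had levels of 0.611, 0.606 and 0.556 in wild-type and 0.541, 0.549 and 0.517 in mutants in the authors' deposited table, a change of -5.5 points (FDR 7.48e-24). Levels did not overlap between the groups in these 2 genes, and reads for both exons of a pair were plentiful, from 104 per library upward. Mrps9 had 2 such events in the authors' deposited table, at 4.0 and 7.0 points higher, with overlapping levels. The 2 events under 20 reads were in mrpl11 and mrpl13, with 4 and 1 reads in each group, too few to compare.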

How the data were processed

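RNA of 6 libraries of whole zebrafish embryos was sequenced. For each gene the authors deposited a whole-number count of reads and an FPKM value, and FPKM equals the count divided by exonic length and library total within 0.005. The authors also deposited a table of changed genes (log2 fold change, p-value) and splicing sheets with inclusion levels, read counts, p-values and false discovery rates. HISAT2 2.0.1, HTSeq 0.6.1 and the build GRCz11 are among the tools and builds named, without role, per the submitters' processing notes. The strand setting of the counting and the splicing tool are not given in the sources used here. Splicing cells with 3 counts merged into 1 number were parted at 3 digits, which gave back the deposited levels within 0.0005.

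The counts of the 16489 genes whose mean reached 0.5 FPKM were tested in one fit with edgeR 4.0.16 (R 4.3.3), TMM scaling and the two-sided quasi-likelihood test, with Benjamini-Hochberg adjustment over all genes and calls at an adjusted p under 0.05. Every log2 change subtracts wild-type from mutant. The test was run on simulated data before use. Alternatives were DESeq2 1.42.0, RLE size factors, 2 other filters, limma 3.58.1 on log2(FPKM + 1) and log2(FPKM + 0.1), a removed length trend, a replicate block and each library left out. The labels call the samples independent without naming clutches, so p-values measure the spread between these samples. The members and lists were chosen with earlier results of these data known. List genes were matched by symbol and, for 6 genes, through a table of gene names, and 5 listed symbols were not matched. Genes named are the members past the threshold, the 5 highest and 3 lowest in level, the 5 largest changes not called, members with splicing events, the S18 homologs and called genes of the lists. Sequences are not printed, since no sequence table was used here.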

Additional observations from a re-analysis of the deposited data

How the results depend on the processing

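No member's call changed direction under any of the 15 alternatives. Of the 13 called members, mrpl24, mrpl46, mrps18c and mrpl36 were called under all 15. The other 9 were each lost in 2 to 4 of them, always where 1 library was left out, except that DESeq2 also lost mrpl30. Limma called 16 members lower on log2(FPKM + 1) and 16 on log2(FPKM + 0.1), against 9 with edgeR. With 1 library left out, between 2 and 21 members were called higher and between 2 and 10 lower, the 21 without mutant replicate 2, and the 2 lower calls without wild-type replicate 1. For the 92 other genes of mitochondrial gene expression these ranges were 1 to 16 higher and 1 to 8 lower. The share of all genes called varied too, at 3.88% higher and 4.41% lower without wild-type replicate 3. Without mutant replicate 2 these shares were 14.5% and 14.8%. The median log2 change of the members stayed between -0.05 and 0.13, with 0.13 in the fit without mutant replicate 2. Between mutant libraries the SD of the median was 0.24. That SD includes mutant replicate 2 and describes single libraries, so it cannot tell whether the shift exceeds the spread. Mrps18a, which was not called, went below 0 with the length trend removed (-0.0168), limma (-0.0497 with a pseudocount of 0.1 and -0.0486 with 1) and a minimum of 5 FPKM (-0.0107), and ran from -0.0608 to 0.0677 with 1 library left out.

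Deviations of libraries with the same number in both groups had correlations of 0.16, 0.29 and 0.05. For libraries with different numbers the correlations ran from -0.26 to 0.13. The labels call the samples independent, so the main fit did not pair them, and whether the numbers mark pairs is not known. With a replicate block 5 members were called higher and 11 lower, the 13 called without it among them, and with the length trend also removed 6 and 11, with mrps18a at -0.0171. Of all genes 20.5% were called under the block, against 14.2% in the main fit, so calls also rose outside the members. The shares of all genes by direction, and those with the length trend also removed, are not given here.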
